A study of Mus musculus with 6 samples.

Results

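The transporters that carry bile acids and organic anions across the hepatocyte were examined in liver RNA-seq after knockdown of Hnf1aos1, a long non-coding RNA of the liver. The set was listed by name for what its members are known to transport, with earlier results of these data in view, and holds 10 of the 40803 genes in the count table: Slc10a1, Slco1a1, Slco1a4 and Slco1b2 for uptake from blood, Abcb11, Abcb4 and Abcc2 for export into bile, and Abcc3, Abcc4 and Slc51b for export back into blood. Of these, 9 had enough reads to be tested. The rAAV8-Scramble group (n = 3) were normally fed male C57BL/6J mice injected in the tail vein with a recombinant adeno-associated virus of serotype 8 that carried a scrambled short hairpin RNA, and the rAAV8-Hnf1aos1 group (n = 3) received the same vector with a hairpin against Hnf1aos1. The mice were about 6 weeks old at injection, and livers were taken 4 weeks later. Each library came from the liver of 1 mouse. All animals of both groups carried the vector, its U6-driven hairpin and a green fluorescent protein reporter, so no uninjected liver stands beside them, and neither the U6 promoter nor the reporter's CAG promoter is restricted to hepatocytes.

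Hepatocytes take up bile acids and other anions from sinusoidal blood through carriers on the basolateral membrane and pump them into the bile canaliculus through ATP-driven exporters on the apical membrane. A further group of exporters on the basolateral membrane returns anions to blood and is best known for its role when bile flow fails. Expression of these genes is governed by nuclear receptors such as FXR, CAR and PXR and, for several of the ABC exporters, by the oxidative stress factor NRF2.

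The libraries held 14704746 to 19462398 reads assigned to genes. Hnf1aos1 itself was measured at 512.0, 490.6 and 620.3 normalized counts (counts divided by TMM-scaled library size) in the scramble libraries and at 278.5, 258.5 and 432.9 in the knockdown libraries. The groups did not overlap, and the mean was 59.8% of scramble, but the change did not pass the test (log2 fold change −0.74, SE 0.20, adjusted p = 0.0625, edgeR quasi-likelihood test). By RT-qPCR in more mice, the study reports a significant reduction of Hnf1aos1 RNA in the liver. The 10 hepatocyte markers summed to 100032 to 108839 CPM (counts scaled to a common library size) in scramble and 107225 to 119063 in knockdown libraries, and each was detected, while the 7 kidney tubule markers and 4 of the 6 neutrophil markers (Ly6g, Mpo, Camp and Retnlg) averaged under 3 counts. The neutrophil genes summed to 0.194 to 0.340 CPM in scramble and 0.668 to 1.33 in knockdown libraries, without overlap, and S100a8 and S100a9 averaged 1.44 and 1.05 normalized counts in scramble and 6.92 and 8.48 in knockdown livers, too few to test. Other marker lists were small beside the hepatocyte list: 103 to 124 CPM in scramble and 106 to 244 in knockdown for 9 cholangiocyte genes (Cftr under 3 counts), 379 to 401 and 322 to 376 for 8 sinusoidal endothelial genes, and 370 to 480 and 314 to 425 for 8 stellate cell genes. Kupffer cell and macrophage markers stood at 173 to 208 CPM in scramble and 211 to 268 in knockdown, with all 8 above 0 on the log2 scale of change and Clec4f and Adgre1 called higher, Adgre1 in only 2 of 9 alternative fits. Skeletal muscle markers ranged from 56.6 to 210 CPM in scramble and from 24.4 to 65.7 in knockdown, with Actn3 called lower. The part of these cell types in the values below was not tested, and in bulk liver fewer cells of a type cannot be told apart from less RNA per cell.

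Among the transporters, 2 exporters of the ABCC family were called lower in the knockdown livers: Abcc2, on the canalicular side, at 72.0% of scramble and Abcc4, on the basolateral side, at 63.1%. Both calls depended on the processing, as given below. Each held in only 1 of the fits that left out 1 library, and Abcc4 was not called by DESeq2. The uptake carriers Slc10a1, Slco1a1, Slco1a4 and Slco1b2 gave values that overlapped between the groups, and none passed the test. The bile salt pump Abcb11 and the phospholipid translocator Abcb4 averaged 89.8% and 85.5% of scramble without passing it. All 9 tested members had a log2 fold change below 0, from −0.0026 for Slco1a1 to −0.67 for Abcc4, with a median of −0.17 against −0.0004 for all genes tested.

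The count of 2 called among 9 tested, 0 of them higher, is set against 6.32% of the 16327 genes tested being called at an adjusted p under 0.05, 3.23% lower and 3.09% higher. At an unadjusted p under 0.05 the same 2 members were lower, against 11.4% of all genes. In 3 members, Abcb11, Abcc2 and Abcc4, the highest knockdown value lay under the lowest scramble value, as it did for 13.7% of all genes, and in none did the groups part the other way, as they did for 15.2%. No member passed the study's further limit of an absolute log2 fold change above 1. With 3 libraries a group, the exact two-sided permutation test of a single gene cannot give a p below 0.1, and it gave 0.1 for Abcb11, Abcc2 and Abcc4.

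**Figure D1:**
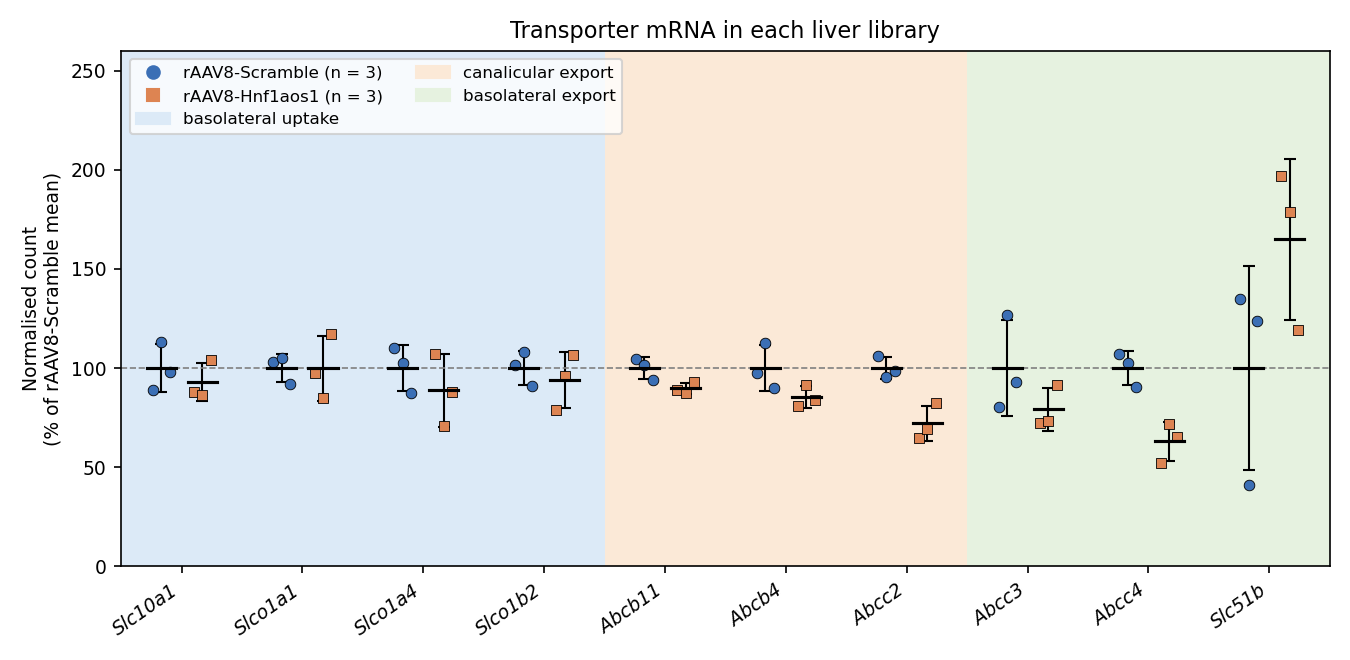
Normalized count of each transporter in each library, as a percentage of the mean of the rAAV8-Scramble libraries (circles, n = 3; squares, rAAV8-Hnf1aos1, n = 3; black lines, mean ± SD). The knockdown points of Abcc2 and Abcc4 lie below all scramble points, while those of the uptake carriers overlap them; Slc51b rests on 2 to 11 reads a library.

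Slc10a1 encodes NTCP, the sodium-dependent carrier for conjugated bile acids. It stood at 6268, 7941 and 6899 normalized counts in the scramble libraries and 6199, 6086 and 7321 in the knockdown libraries. The groups overlapped, with means of 7036 ± 845 and 6535 ± 683 (SD, n = 3 each), a log2 fold change of −0.11 (SE 0.12, 95% interval −0.36 to 0.15) and an adjusted p of 0.624 (edgeR). A fall beyond 0.36 on the log2 scale therefore lies outside the interval.

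The other uptake carriers are organic anion transporting polypeptides, which work without sodium and take up bile acids, bilirubin, steroid conjugates and many drugs. Slco1b2, the main carrier of this family in mouse hepatocytes, was measured at 19177, 20387 and 17154 normalized counts in scramble and 14858, 18153 and 20140 in knockdown libraries. Its highest and lowest knockdown values bracketed most of the scramble values (log2 fold change −0.09, SE 0.13, 95% interval −0.37 to 0.19, edgeR adjusted p = 0.706).

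Slco1a1, a carrier more abundant in male than in female mouse liver, stood at 8821, 8979 and 7857 normalized counts in scramble and 8351, 7238 and 10022 in knockdown libraries. Its group means of 8552 ± 607 and 8537 ± 1401 (SD, n = 3 each) were the closest of the 9 tested members, with an interval of −0.28 to 0.27 for the log2 fold change and an adjusted p of 0.994 (edgeR). The knockdown SD was larger, from the values of replicates 2 and 3. Slco1a4, a related carrier of lower abundance, gave 613.5, 573.0 and 488.3 normalized counts in scramble and 598.9, 395.3 and 491.8 in knockdown libraries (log2 fold change −0.17, SE 0.15, 95% interval −0.50 to 0.15, edgeR adjusted p = 0.518). Slco1b2, Slco1a4 and Slco1a1 all lie on chromosome 6. Of the 50-base stretches in annotated transcripts, 1.64% for Slco1a1 and 1.61% for Slco1a4 also occur in transcripts of 5 other genes. For Slco1b2 this held for 0 of 4971 stretches. The study's reads were paired and longer than such a stretch. These shares therefore do not give the part of reads that could not be placed uniquely.

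On the canalicular side, Abcb11 encodes the bile salt export pump, which sets the rate of bile acid secretion. It was measured at 17477, 16955 and 15713 normalized counts in scramble and 14900, 14608 and 15501 in knockdown libraries. The groups did not overlap, but the lowest scramble and highest knockdown values lay close together. The log2 fold change was −0.16 (SE 0.10, 95% interval −0.37 to 0.06), with an adjusted p of 0.363 (edgeR).

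Abcb4 encodes the translocator that supplies phosphatidylcholine to bile and so protects the biliary tree from bile acids. It stood at 4562, 5261 and 4207 normalized counts in scramble and 3780, 4287 and 3928 in knockdown libraries, and knockdown replicate 2 lay above scramble replicate 3. The log2 fold change was −0.23 (SE 0.11, 95% interval −0.46 to 0.01), with an unadjusted p of 0.0561 and an adjusted p of 0.226 (edgeR). Here 2.83% of 50-base stretches were shared with other genes.

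Abcc2 encodes MRP2, the canalicular exporter of bilirubin glucuronides, glutathione conjugates and other divalent anions. It was measured at 15570, 13989 and 14395 normalized counts in the scramble libraries and 9471, 10163 and 12032 in the knockdown libraries. Every knockdown library was lower than every scramble library, knockdown replicate 3 being the nearest. The means were 14652 ± 821 and 10555 ± 1324 (SD, n = 3 each), giving a log2 fold change of −0.47 (SE 0.11, 95% interval −0.72 to −0.22) and an adjusted p of 0.0353 (edgeR). With DESeq2 the adjusted p was 0.00231, and over the other tests, scalings and filters it ran from 0.000627 to 0.143. The call was lost in 5 of the 6 fits that left out 1 library and held without knockdown replicate 3 (adjusted p 0.00634 to 0.131), while the log2 fold change stayed between −0.57 and −0.41.

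Abcc4 encodes MRP4, a basolateral exporter of bile acids together with glutathione and of cyclic nucleotides. It was measured at 144.7, 138.3 and 122.1 normalized counts in scramble and 70.6, 96.9 and 87.9 in knockdown libraries, from 111 to 141 and 74 to 102 reads a library. The groups did not overlap, and the means were 135 ± 11.6 and 85.1 ± 13.4 (SD, n = 3 each). The log2 fold change was −0.67 (SE 0.17, 95% interval −1.04 to −0.29), with an adjusted p of 0.0432 (edgeR). DESeq2 gave an adjusted p of 0.0502 (0.0104 to 0.0791 over the other tests, scalings and filters), so that it called 1 of the members, Abcc2, against 7.11% of all genes with an adjusted p. As for Abcc2, the call held only without knockdown replicate 3 among the fits that left out 1 library (adjusted p 0.0378 to 0.119), with log2 fold changes from −0.76 to −0.56.

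Abcc3 encodes MRP3, which exports glucuronides into blood and is also made by cholangiocytes. It stood at 4625, 7288 and 5342 normalized counts in scramble and 4170, 4222 and 5254 in knockdown libraries. Scramble replicate 2 was the highest and the other values overlapped. The log2 fold change of −0.34 (SE 0.17, 95% interval −0.72 to 0.04) did not pass the test (edgeR adjusted p = 0.261), and without scramble replicate 2 it was −0.14. Cholangiocyte markers summed to 124, 103 and 118 CPM in the scramble libraries and 244, 134 and 106 in the knockdown libraries. Among them, Spp1 stood at 2161 normalized counts in knockdown replicate 1, against 282 to 319 in scramble libraries. Of 6 tested markers, 5 had a log2 fold change above 0, Krt19 had one below 0, and 0 were called. The part of these markers in the Abcc3 value was not tested.

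Slc51b encodes the beta subunit of the organic solute transporter, which pairs with Slc51a and is scarce in healthy mouse liver. It had 7, 2 and 6 reads in the scramble libraries and 11, 10 and 7 in the knockdown libraries, below the filter for testing. The groups overlapped in normalized counts, since the highest scramble value of 7.18 exceeded the lowest knockdown value of 6.34 (exact two-sided permutation p = 0.3). In a fit with no filter on low counts its log2 fold change was 0.70 with an SE of 0.61 (edgeR adjusted p = 0.619), so that a difference was not detectable at this depth. The partner Slc51a was also too low to test, at 6.45 ± 1.13 and 5.57 ± 2.65 normalized counts (SD, n = 3 each).

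**Figure D2:**
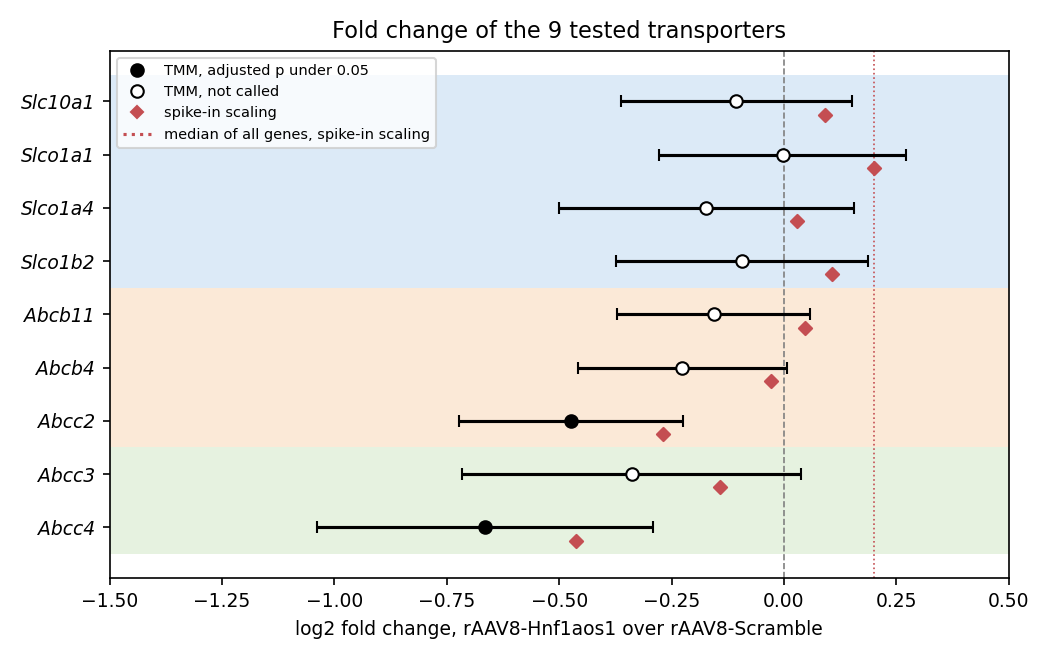
log2 fold change of the 9 tested transporters, rAAV8-Hnf1aos1 over rAAV8-Scramble, with TMM scaling (circles, with 95% intervals; filled, adjusted p under 0.05) and with libraries scaled to their ERCC spike-in RNA (diamonds). Shaded bands mark uptake (blue), canalicular export (orange) and basolateral export (green); the dotted line at 0.20 is the median of all genes under spike-in scaling.

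The direction of the small changes depended on how libraries were scaled. The ERCC spike-in RNA took 1.38 to 1.52% of the scramble reads and 1.18 to 1.24% of the knockdown reads, and scaling to it raised the median of all genes by 0.20 on the log2 scale. Slc10a1, Slco1a1, Slco1a4, Slco1b2 and Abcb11 then had values above 0, between 0.03 for Slco1a4 and 0.20 for Slco1a1, whereas Abcb4, Abcc2, Abcc3 and Abcc4 stayed below 0. Abcc2 stood at −0.27 and Abcc4 at −0.46, and neither passed the test (edgeR adjusted p = 0.143 and 0.0791). Relative to the median of all genes under the same scaling, the values were −0.47 for Abcc2 and −0.66 for Abcc4.

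Ratios of the deposited TPM (a level per transcript length) between 2 transporters of the same library do not depend on that scaling. They were computed for Abcc2 and Abcc4 after their values were known and are a description with no test. The ratio of Abcc2 to Abcb11 was 0.925, 0.856 and 0.951 in the scramble libraries and 0.660, 0.722 and 0.806 in the knockdown libraries. The ratio of Abcc2 to Slco1a1 was 1.24, 1.09 and 1.29 in scramble and 0.797, 0.987 and 0.844 in knockdown libraries, so Abcc2 exceeded this carrier in each scramble library and lay under it in each knockdown library. The groups overlapped for the ratio of Abcc2 to Slco1a4, Abcb4 and Abcc3, and for that of Abcc4 to Slco1a4 and Abcc3. The ratio of Abcc2 to Abcc4 overlapped between the groups, at 176 ± 13.7 and 203 ± 28.8 (SD, n = 3 each).

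**Figure D3:**
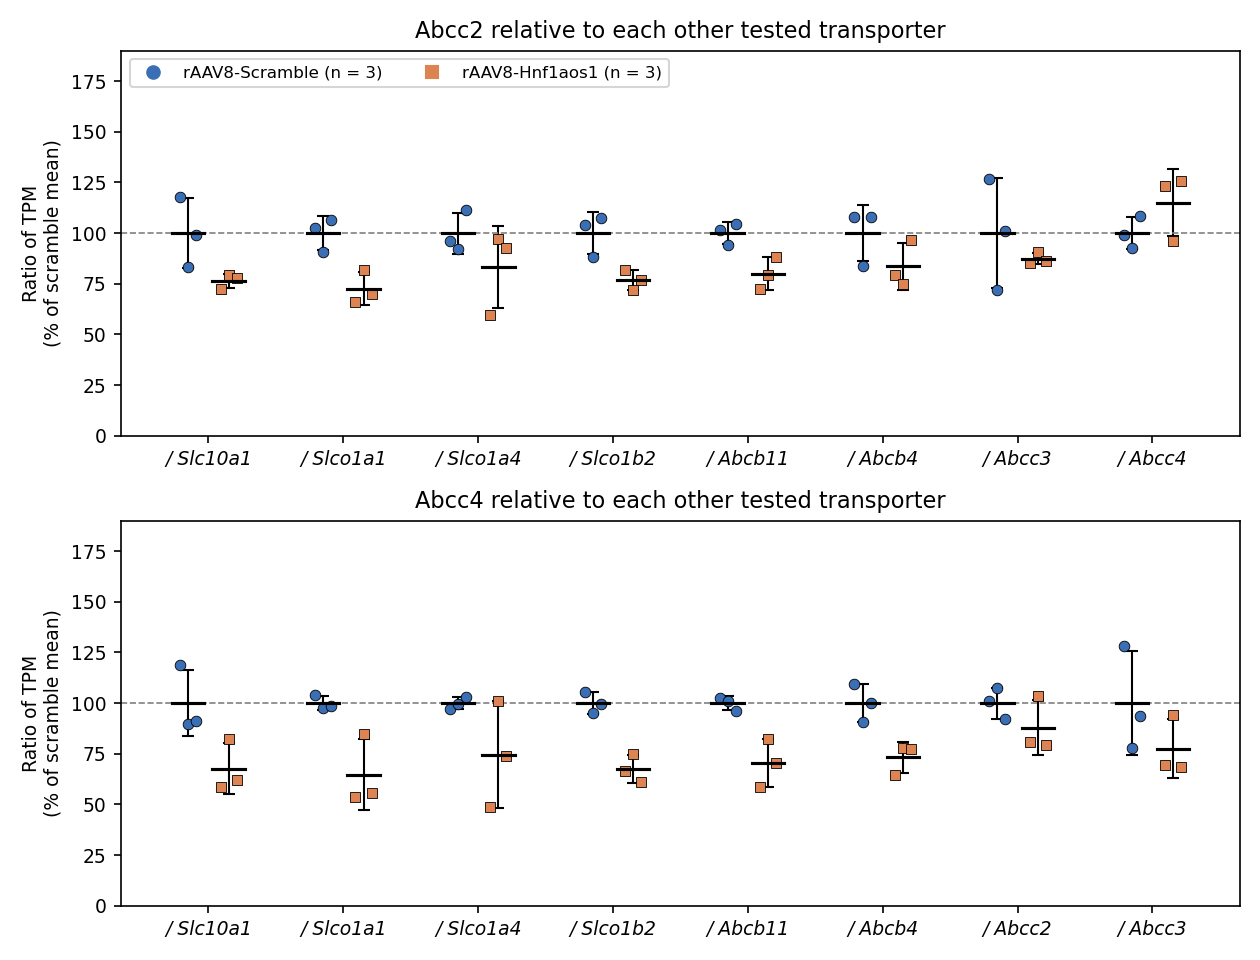
Ratio of the TPM of Abcc2 (top) and Abcc4 (bottom) to that of each other tested transporter within the same library, as a percentage of the mean ratio in rAAV8-Scramble (circles, n = 3; squares, rAAV8-Hnf1aos1, n = 3; black lines, mean ± SD). The knockdown ratios of Abcc2 to Abcb11 lie between 0.660 and 0.806, below the scramble ratios of 0.856 to 0.951, while the ratio between Abcc2 and Abcc4 overlaps; both numerators were picked after their values were known.

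By level per length, the order in the scramble livers was Slco1b2 (729 ± 43.2 TPM), Slc10a1 (417 ± 46.8), Abcb11 (371.5 ± 11.9), Abcc2 (338 ± 20.2), Slco1a1 (281 ± 12.2), Abcc3 (148 ± 33.2), Abcb4 (145 ± 13.2), Slco1a4 (17.8 ± 1.64), Abcc4 (1.92 ± 0.12) and Slc51b (1.43 ± 0.74; SD, n = 3 for each). The ranges of Slc10a1 and Abcb11, of Abcc3 and Abcb4, and of Abcc4 and Slc51b overlapped, and all other neighbors were apart in these libraries. In the knockdown livers Abcc2, at 231 ± 24.8 TPM, came after Slco1a1, at 266 ± 43.7, with overlapping ranges but the same order in each of the 3 libraries. Abcc4, at 1.15 ± 0.15 TPM, came last, below Slc51b at 2.23 ± 0.60.

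Summed by role, the 3 canalicular exporters gave 881, 845 and 840 TPM in the scramble libraries and 658, 642 and 696 in the knockdown libraries. These sums were apart between the groups, and the knockdown mean was 77.8% of scramble. Most of the difference was that of Abcc2, from 338 to 231 TPM, with smaller ones from Abcb11 (371.5 to 317) and Abcb4 (145 to 118), which did not pass the test. TPM lacks the TMM scaling of the fit, and on log2(TPM + 0.1) the fold changes lay lower. They were −0.56 against −0.47 for Abcc2, −0.23 against −0.16 for Abcb11 and −0.30 against −0.23 for Abcb4. The uptake carriers summed to 1445 ± 81.2 TPM in scramble and 1296 ± 137 in knockdown livers, and the basolateral exporters to 151 ± 32.5 and 114 ± 13.0 (SD, n = 3 each), both with overlapping ranges. The uptake sum was mostly Slco1b2 and Slc10a1, and the basolateral sum was almost entirely Abcc3.

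**Figure D4:**
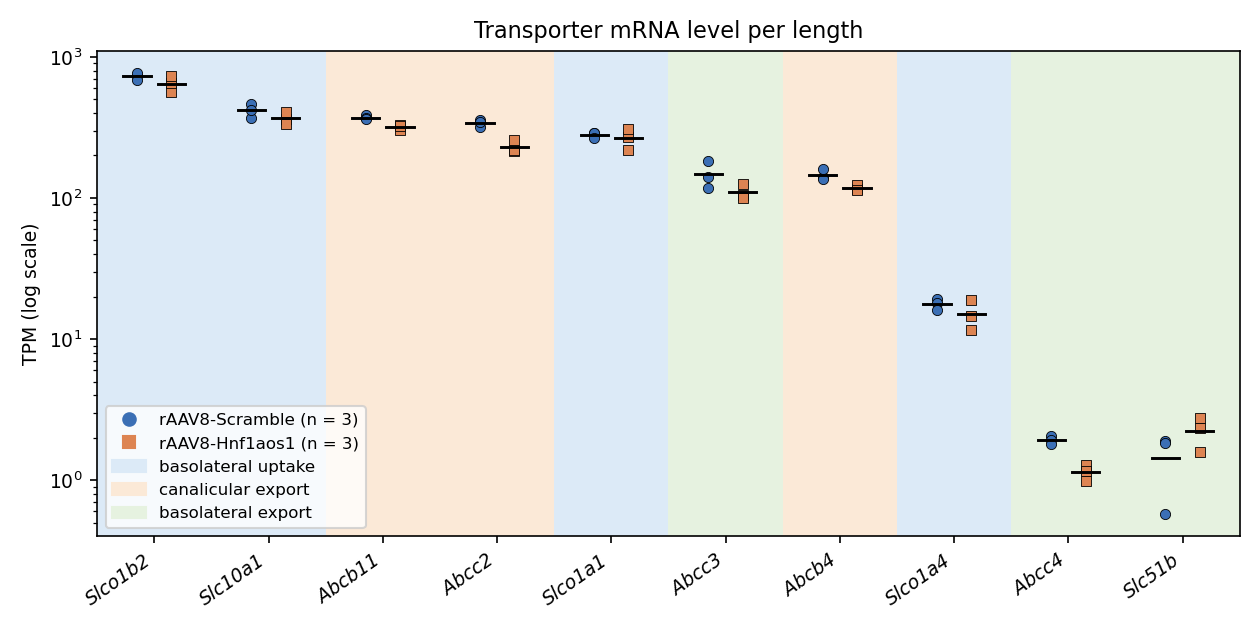
TPM of each transporter in each library on a log scale, ordered by the mean of rAAV8-Scramble (circles, n = 3; squares, rAAV8-Hnf1aos1, n = 3; black lines, means). Levels run from 729 TPM for Slco1b2 to 1.92 for Abcc4 and 1.43 for Slc51b in the scramble means, and the role of each gene is shaded.

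The sequences before the start sites of the 2 called members, picked after their calls were known, are shown as a description. They are the 250 bases upstream of each RefSeq start in GRCm38.p6, given 5′ to 3′ on the strand of the gene, with the window of Abcb11, which was not called, for comparison. The windows are chr19:43782058-43782307 (plus strand) for Abcc2, chr14:118706220-118706469 and chr14:118676932-118677181 (minus strand) for the 2 starts of Abcc4, and chr2:69342617-69342866 (minus strand) for Abcb11. Capitals mark matches, on either strand, to the antioxidant response element core bound by NRF2 (TGACNNNGC), a nuclear receptor half-site (AGGTCA) or a C/EBP site (TTGCNNAA).
Abcc2: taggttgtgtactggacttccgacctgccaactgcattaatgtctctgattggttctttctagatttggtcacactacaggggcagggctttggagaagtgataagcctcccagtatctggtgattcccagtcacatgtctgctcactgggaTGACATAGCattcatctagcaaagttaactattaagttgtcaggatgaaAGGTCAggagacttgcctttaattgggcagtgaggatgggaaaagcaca
Abcc4, upstream start: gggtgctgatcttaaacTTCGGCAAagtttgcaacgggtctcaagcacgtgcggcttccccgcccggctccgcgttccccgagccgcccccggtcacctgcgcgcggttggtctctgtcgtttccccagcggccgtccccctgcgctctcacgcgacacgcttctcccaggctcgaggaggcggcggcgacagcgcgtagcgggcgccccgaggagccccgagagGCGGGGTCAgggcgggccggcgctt
Abcc4, downstream start: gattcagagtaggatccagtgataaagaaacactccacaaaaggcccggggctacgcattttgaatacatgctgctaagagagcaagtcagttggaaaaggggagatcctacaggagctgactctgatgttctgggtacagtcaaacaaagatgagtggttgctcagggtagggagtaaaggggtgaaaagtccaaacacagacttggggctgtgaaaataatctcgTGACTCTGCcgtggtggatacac
Abcb11: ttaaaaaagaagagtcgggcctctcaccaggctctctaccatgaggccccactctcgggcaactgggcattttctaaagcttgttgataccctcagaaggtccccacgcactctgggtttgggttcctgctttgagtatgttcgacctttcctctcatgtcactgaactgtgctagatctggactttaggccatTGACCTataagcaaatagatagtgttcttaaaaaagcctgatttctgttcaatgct

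The antioxidant response element core occurred 98 to 90 bases before the Abcc2 start, 25 to 17 bases before the upstream start of Abcc4 (on the opposite strand) and 23 to 15 bases before its downstream start. A window was found for 9 of the 10 members, 11 windows in all. These 3, 2 of them of the same gene Abcc4, were the ones with a match, against 10.2% of 32851 RefSeq windows of the same length. The half-site AGGTCA was in 6 of the 11 windows, including those of Abcc2 (49 to 44 bases before the start) and Abcb11 (56 to 51, opposite strand), and in 14.0% of all windows. The C/EBP letters were in 2 of 11 windows, 1 of them of Abcc4, and in 9.56% of all. The core and the half-site on the opposite strand share the letters TGAC, but no match to one overlapped the other in these windows. The motifs were chosen with the results known, and a match is a description of the letters, not a site in use.

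Of 23 receptors and factors that control transport genes, Nr1i3, Nfe2l2 and Klb fell and Foxa3 rose, with a median log2 fold change of −0.05. Nfe2l2, which encodes NRF2, had 2170, 1921 and 2047 normalized counts in scramble and 1477, 1486 and 1408 in knockdown libraries. Its log2 fold change was −0.49 (SE 0.09, edgeR adjusted p = 0.0107). Nr1i3, which encodes the xenobiotic receptor CAR, had 615.6, 623.5 and 584.0 in scramble and 334.7, 475.1 and 367.7 in knockdown libraries (log2 fold change −0.63, SE 0.13, edgeR adjusted p = 0.0172). Klb, the co-receptor for intestinal FGF15 in bile acid feedback, changed by −0.57 (SE 0.14, adjusted p = 0.0450), and Foxa3, a liver forkhead factor, by 0.57 (SE 0.14, adjusted p = 0.0445, both edgeR). Foxa3 lost its call with limma voom, with library totals and with a mean of at least 50 counts, and in 5 of the 6 fits without 1 library. Klb lost its call in the same 5 of those fits. The bile acid receptor FXR (Nr1h4) gave 2007 ± 123 and 2119 ± 453 normalized counts and Hnf4a 11279 ± 286 and 10635 ± 1719 (SD, n = 3 each), with adjusted p of 0.780 and 0.724 (edgeR). Nr1i2, which encodes PXR, stood at 1149, 1004 and 1069 normalized counts in scramble and 629.4, 792.5 and 928.4 in knockdown libraries, without overlap, and did not pass the test (log2 fold change −0.46, SE 0.13, edgeR adjusted p = 0.0647). These 3, beyond the rule for naming genes, were picked after their values were seen.

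The called targets of NRF2 and of FXR included both higher and lower genes. Among 16 tested NRF2 targets, Gstm1 (log2 fold change 0.49), Osgin1 (0.80) and Cbr3 (1.60) rose and Me1 (−0.63) fell, with a median of 0.35. Over all genes tested, 6.32% were called. Cbr3 averaged only 8.52 normalized counts in scramble and 26.3 in knockdown libraries, and it had no call with a mean of at least 50 counts. Of the 6 fits without 1 library, Gstm1 and Cbr3 kept their call in 1, Osgin1 in 2 and Me1 in 3. Gstm1 is a glutathione transferase, Cbr3 a carbonyl reductase, Osgin1 an oxidative stress-induced growth inhibitor, and Me1 a source of NADPH for lipid synthesis. Of 14 tested CAR and PXR targets, 0 were called by edgeR or by DESeq2, and the median was −0.12. At an unadjusted p under 0.05 in either direction (edgeR), the counts were 6 of these 14 and 10 of the 16 NRF2 targets. For FXR targets outside the set they were 6 of 13, for receptors and factors 13 of 23, and for all genes 3822 of 16327. Of 13 tested FXR targets outside the set, the fibrinogen chains Fgb (1.11) and Fgg (1.04) rose and Nr1i3 fell, with a median of −0.12. Fibrinogen is a clotting protein of the acute phase rather than part of bile acid handling, and Fgb is also among the hepatocyte markers above.

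In bile acid synthesis and conjugation, 2 of 17 genes were called, both higher. Cyp7b1, the oxysterol hydroxylase of the acidic pathway, stood at 3550, 3531 and 2861 normalized counts in scramble and 7542, 7599 and 6050 in knockdown libraries (log2 fold change 1.09, SE 0.12, edgeR adjusted p = 0.00154). Cyp2c70, which makes the muricholic acids of mice, stood at 5036, 4688 and 4785 in scramble and 13037, 11786 and 9857 in knockdown libraries (log2 fold change 1.26, SE 0.12, edgeR adjusted p = 0.000665). The list's median was 0.01. Of 29 other liver transporters tested, 1 was called: Abca1, the cholesterol exporter, rose (log2 fold change 0.54, SE 0.11, edgeR adjusted p = 0.0154), and the median was −0.01. Of 20 genes of the canalicular scaffold and trafficking, Cttn, which encodes the actin-binding cortactin, rose (0.47, SE 0.12, edgeR adjusted p = 0.0439), with a median of 0.07. Cttn was called in 5 of 9 alternative fits. The counts of these lists stand beside 6.32% of all genes tested being called at an adjusted p under 0.05.

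Since Slco1a1 differs between the sexes, sex-biased liver genes were read beside it. Of 16 male-biased genes, Cyp7b1, Ugt2b38 (log2 fold change 0.92), Serpina1e (0.84), C6 (0.61) and Nudt7 (0.52) rose, with a median of 0.50. DESeq2 called 7 higher and 1 lower, and the fit without knockdown replicate 3 called 4 higher and 1 lower. Of 16 female-biased genes, 4 were tested, and Acot3 fell (−3.29, SE 0.24, edgeR adjusted p = 0.000142), with a median of −0.80 over these 4. Slco1a1 itself stayed at −0.0026.

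**Figure D5:**
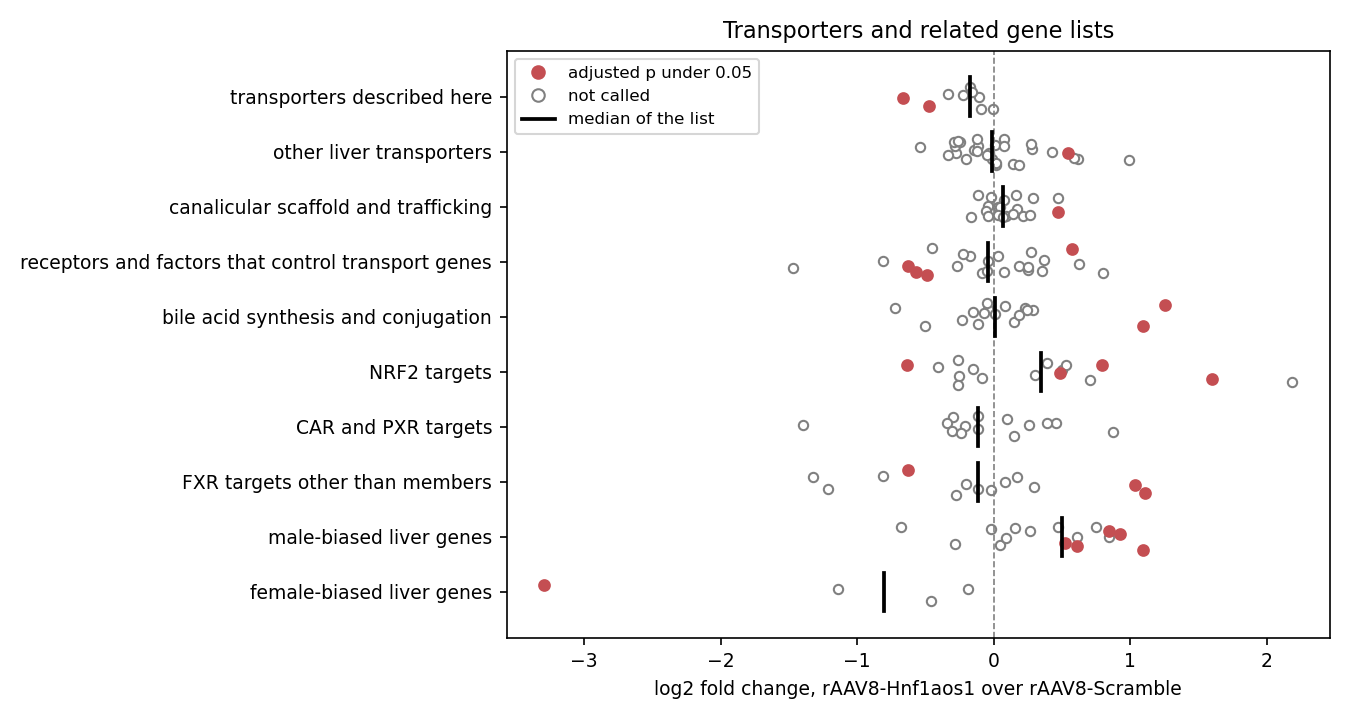
log2 fold change of each tested gene of the transporter set and of 9 related lists, rAAV8-Hnf1aos1 over rAAV8-Scramble (filled, edgeR adjusted p under 0.05; open, not called; black bar, median of the list). The transporters lie at or below 0 with 2 called, while the called genes of bile acid synthesis lie above 1; some genes are in 2 lists.

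Calls in these lists varied with single libraries, as did those over all genes. With all 6 libraries 1032 genes were called, and without scramble replicate 1, 2 or 3 the number was 630, 391 or 103. For knockdown replicate 1, 2 or 3 left out, it was 630, 323 or 1881. Without scramble replicate 3, 0 receptors and factors, 0 NRF2 targets, 0 FXR targets and 0 other transporters were called, and 2 male-biased genes. Without scramble replicate 2 or knockdown replicate 2, 0 NRF2 targets, 0 other transporters and 2 receptors and factors were called. Without scramble replicate 1 or knockdown replicate 1, 2 NRF2 targets were called, and 2 receptors and factors without scramble replicate 1. Male-biased calls numbered 3 without knockdown replicate 1 or 2. Without knockdown replicate 3, 7 receptors and factors, 9 NRF2 targets, 7 other transporters, 3 scaffold genes and 1 CAR and PXR target were called, and Cttn was called in no other fit that left out 1 library. Cyp7b1, Cyp2c70, Ugt2b38 and Acot3 kept their call whichever of the 6 libraries was dropped, and Nfe2l2, Fgb and C6 lost it only without scramble replicate 3.

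The genes whose log2 CPM followed Abcc4, the called member with the larger change, most closely over the 6 libraries were Cyp2a22 (Pearson r = 0.993), Hpgds (0.991), Clock (0.990), Pih1d1 (0.989) and Gm30881 (0.987). None of the 5 was called, and these correlations are a description over 6 libraries of 2 groups.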

How the data were processed

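Total liver RNA was sequenced from paired ends; per the study's methods reads were trimmed, aligned with STAR to GRCm38 and counted with featureCounts over exons from unique alignments, whereas the submitters' processing notes name GRCm39. Methods name poly(A) selection with a stranded kit, and the labels name ribosomal RNA depletion. The authors deposited raw counts, TPM and DESeq2-normalized counts (a signal in counts divided by size factors) per gene; a deposited table of their own comparison (fold changes and p-values) was not used. Of 40803 symbols, 37492 were found in RefSeq GRCm38.p6.

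Raw counts were fitted for all 6 libraries with edgeR 4.0.16 (TMM, filterByExpr, robust quasi-likelihood, group only) in R 4.3.3, with Benjamini-Hochberg adjustment over 16327 genes and calls at an adjusted p under 0.05. The 92 ERCC rows stayed out of library sizes and tests. Intervals are 95%. DESeq2 1.42.0, limma 3.58.1 (voom), other scalings and filters and fits without each library were alternatives. No pair of libraries of the same group agreed within counting noise. Members, lists and motifs were chosen with earlier results of these data known; all members are named, and of each list the called genes, at most 6. The results for 1 listed factor and 1 further motif searched are not reported here. Slc9a3r1 and Tf were read under the symbols Nherf1 and Trf.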

Additional observations from a re-analysis of the deposited data

How the results depend on the processing

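The number of called transporters was 2 with limma voom, with DESeq2 size factors, with library totals, with no filter on low counts, with a mean of at least 50 counts and with edgeR without its robust option (the last chosen after seeing the data), 1 with DESeq2 and 0 with spike-in library sizes. Leaving out 1 library gave 0 to 2, and 2 only without knockdown replicate 3. All genes called were 1032, of which 505 were higher, 3394 (3030 higher) with spike-in library sizes, 1902 with no filter and 1048 (319 higher) with library totals; leaving out 1 library gave 103 (without scramble replicate 3) to 1881 (without knockdown replicate 3). The direction turned under spike-in sizes for Slc10a1 (log2 fold change 0.0922), Slco1a1 (0.20), Slco1a4 (0.0280), Slco1b2 (0.11) and Abcb11 (0.0457), and for Slco1a1 with DESeq2 (0.000407). Fits without 1 library spanned −0.13 to 0.11 for Slco1a1 and −0.19 to 0.0108 for Slco1b2. The cause was not tested. On log2(TPM + 0.1) Abcb11 was −0.23. DESeq2 called 9 receptors and factors, 6 NRF2 targets, 5 FXR targets, 8 male-biased (7 higher) and 2 female-biased genes and 2 other transporters; Klb lost its call under spike-in sizes and with the replicate number as a block, and Nudt7 kept it in 3 of 9 alternative fits.

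Libraries with the same replicate number did not deviate together (r = −0.0226, 0.0231 and 0.00321). With 3 libraries a group, these correlations cannot settle whether the numbers pair the mice, and the labels do not say. With the number as a block, 0 transporters and 878 genes were called, with adjusted p of 0.0622 for Abcc2 and 0.0704 for Abcc4.

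Abcc4 rests on 74 to 141 reads and Slc51b on 2 to 11 a library, which limits both.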
